A study of Mus musculus with 10 samples.

Results

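A set of 9 genes of myelin and of the oligodendrocytes that make it was followed in the brains of mice with and without an inflammation of the skin: Mbp, Mog, Mag, Mobp, Cnp, Mal, Cldn11, Ermn and Opalin. They were found by their symbols in the annotation of the array, where each of the 9 had 1 probeset that it shared with no other gene, out of 23410 probesets with at least 1 symbol. RNA was measured from the perfused whole brains of 10 female C57BL/6 mice aged 6 to 8 weeks, and the RNA of each mouse was hybridised to its own Affymetrix GeneChip array. Aldara, a cream with 5% imiquimod, a ligand of the RNA sensor TLR7, or aqueous control cream was put on the shaved back in a dose of 80 mg every 24 h. After 5 applications there was a wait of 24 h before the tissue was collected. There were 5 Aldara-treated and 5 control mice, all wild-type, and the comparison asks whether Aldara on the skin changes gene expression in the brain. Aldara also holds isostearic acid, which the control cream lacks, and treated mice lost weight. Inflammation of the skin is therefore not the only difference between the groups.

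Oligodendrocytes wrap the axons of the central nervous system in layers of their own membrane. The layers are pressed together by adhesive proteins, of which myelin basic protein is one, into compact myelin, which insulates the axon and lets impulses jump from node to node. Other proteins sit in the outer and inner edges of the sheath, in the tight junctions between its turns and in the cell body. The 9 genes cover these places, and all are used as markers of mature oligodendrocytes.

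The myelin genes did not move as 1 block in the brains of Aldara-treated mice. Cldn11, Ermn and Mag were higher, by 22.1%, 21.7% and 8.11%, Mbp was lower, by a change of -13.4%, and Mog, Mobp, Cnp, Mal and Opalin did not pass the test. Thus 3 of 9 members were higher, where 12.4% of all probesets were, and 1 of 9 was lower, where 21.0% were (limma, Benjamini-Hochberg adjustment over 23410 probesets, adjusted p under 0.05). With only the 11705 brighter probesets tested, every member among them, 2062 were higher and 4111 lower, larger shares than over all probesets. The median log2 difference over the members was -0.0026, against -0.041 over all probesets tested. In whole tissue, fewer cells of a type and less RNA per cell cannot be told apart.

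The 9 members lay in the upper part of the tested probesets on every array, though the values carry no detection call. The lowest value of any member, 8.41 for Opalin, lay above the median of the tested probesets on every array, which was 8.10 to 8.14 in control mice and 8.16 to 8.19 in Aldara-treated mice. Across probesets, arrays of control mice had correlations of 0.998 to 0.999 among themselves and those of Aldara-treated mice of 0.995 to 0.999. Markers of leukocytes and microglia rose in the same brains. Of 11 leukocyte markers measured 10 were higher, and the log2 of their summed values went from 10.57 to 10.71 in control mice to 12.82 to 13.11 in Aldara-treated mice. Of 9 microglial markers 6 were higher and 2 were lower, with summed values of 12.02 to 12.22 against 12.63 to 12.91. The summed value of the 9 myelin genes was 14.30 to 14.37 in control mice and 14.30 to 14.40 in Aldara-treated mice, and the groups overlapped. The part of the leukocyte and microglial RNA in the differences of the myelin genes was not tested. With 5 arrays in a group, precision is limited by that number.

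Mbp encodes myelin basic protein, which holds the cytoplasmic faces of compact myelin together. Its log2 values were 12.14, 12.21, 12.14, 12.17 and 12.17 in control replicates 1 to 5, and 11.98, 11.94, 11.93, 11.96 and 11.97 in Aldara replicates 1 to 5. Every Aldara-treated mouse lay below every control mouse, as was so for 15.3% of all probesets. The mean went from 12.16 ± 0.03 (SD, n = 5) to 11.96 ± 0.02 (SD, n = 5), a log2 fold change of -0.21 (standard error 0.03, 95% interval -0.26 to -0.15, adjusted p = 7.3e-05 from limma). This is a ratio of 0.866 (95% interval 0.833 to 0.900). Of the 9 members Mbp varied least between mice of a group, with a pooled SD of 0.026.

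Cldn11, which encodes the claudin of the tight junctions between the turns of the sheath, had the largest increase of the 9. Its log2 values were 11.05, 11.12, 10.99, 11.11 and 11.17 in control mice and 11.50, 11.32, 11.34, 11.29 and 11.43 in Aldara-treated mice, in the order of the replicate numbers. The groups did not overlap, and Aldara replicates 1 and 5 were the highest. The log2 fold change was 0.29 (standard error 0.05, 95% interval 0.19 to 0.39, adjusted p = 5.4e-04 from limma). Ermn encodes ermin, a protein that binds actin in the outer parts of the sheath and in the cell body. It had log2 values of 10.31, 10.41, 10.24, 10.24 and 10.10 in control mice and 10.62, 10.55, 10.54, 10.46 and 10.55 in Aldara-treated mice. Here too the groups were apart, though control mice spread over a range wider than that of Aldara-treated mice. The log2 fold change of Ermn was 0.28 (standard error 0.05, 95% interval 0.17 to 0.40, adjusted p = 0.0013 from limma). Mag, the myelin-associated glycoprotein, lies in the innermost membrane of the sheath and binds the axon. Its log2 values were 11.14, 11.14, 11.06, 11.15 and 11.13 in control mice and 11.27, 11.32, 11.19, 11.21 and 11.19 in Aldara-treated mice. The gap between the groups was narrow, from 11.15 to 11.19, and the log2 fold change was 0.11 (standard error 0.03, 95% interval 0.04 to 0.18, adjusted p = 0.019 from limma). With all arrays centred on the same median, Mag was no longer past the threshold (0.06, adjusted p = 0.152). Its adjusted p lay between 0.0036 and 0.152 over 20 alternatives. For these 3 genes every Aldara-treated mouse lay above every control mouse, as was so for 10.5% of all probesets.

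**Figure D1:**
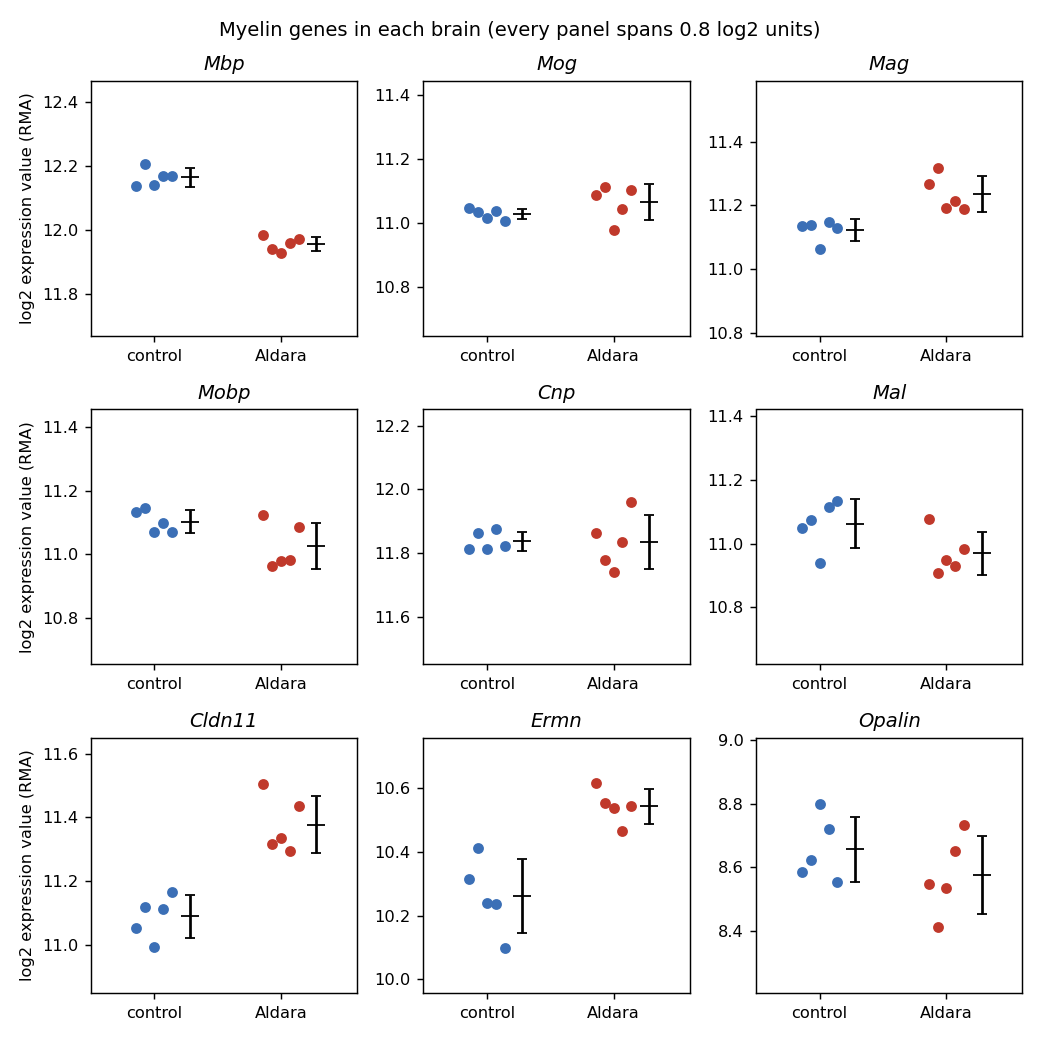
Log2 RMA expression values (vertical axis, 0.8 log2 units in each panel) of the 9 myelin genes in the 5 control mice (blue) and the 5 Aldara-treated mice (red). Each horizontal mark is a group mean, with error bars of 1 SD. The groups are apart for Mbp, Mag, Cldn11 and Ermn and overlap for the others.

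Mog and Mobp did not pass the test. Mog encodes a glycoprotein on the outer face of the sheath, known as a target of antibodies in demyelinating disease. Its log2 values were 11.05, 11.03, 11.02, 11.04 and 11.01 in control mice and 11.09, 11.11, 10.98, 11.04 and 11.10 in Aldara-treated mice. The Aldara-treated mice lay on both sides of the narrow range of the control mice, and the difference was 0.04 (95% interval -0.03 to 0.10, adjusted p = 0.38 from limma). Mobp, a basic protein of compact myelin like Mbp, had log2 values of 11.13, 11.14, 11.07, 11.10 and 11.07 in control mice and 11.12, 10.97, 10.98, 10.98 and 11.08 in Aldara-treated mice. Of the Aldara-treated mice 3 lay below all control mice, and replicates 1 and 5 lay within the control range. The difference of Mobp was -0.08 (95% interval -0.16 to 0.004, adjusted p = 0.13 from limma).

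Cnp encodes an enzyme of the cytoplasmic channels of the sheath. It had log2 values of 11.81, 11.86, 11.81, 11.88 and 11.82 in control mice and 11.86, 11.78, 11.74, 11.83 and 11.96 in Aldara-treated mice. The means were nearly equal, with a difference of -0.003 (95% interval -0.09 to 0.08, adjusted p = 0.97 from limma), and Aldara replicates 3 and 5 gave the lowest and the highest value of all 10 mice. Mal, a membrane protein that sorts proteins and lipids to myelin, had log2 values of 11.05, 11.07, 10.94, 11.12 and 11.13 in control mice and 11.08, 10.91, 10.95, 10.93 and 10.98 in Aldara-treated mice. The groups overlapped through control replicate 3, the lowest control, and Aldara replicate 1, and the difference was -0.09 (95% interval -0.19 to 0.001, adjusted p = 0.12 from limma). Opalin, a membrane glycoprotein of oligodendrocytes in the central nervous system, had log2 values of 8.58, 8.62, 8.80, 8.72 and 8.55 in control mice and 8.55, 8.41, 8.53, 8.65 and 8.73 in Aldara-treated mice. It had the widest spread of the 9 within groups, with a pooled SD of 0.112, and the groups overlapped along most of their range. The difference was -0.08 (95% interval -0.22 to 0.06, adjusted p = 0.36 from limma). The intervals of these 5 genes did not reach the size of the changes of Cldn11 and Ermn. Those of Mobp, Mal and Opalin did include changes larger in size than that of Mag (0.11). That of Opalin also reached the change of Mbp (-0.21).

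**Figure D2:**
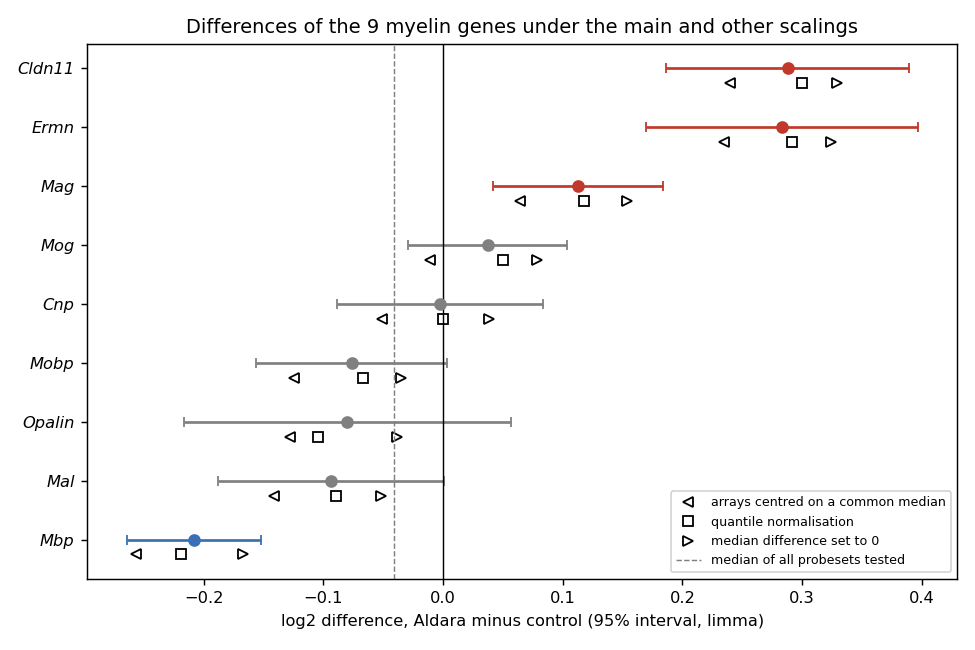
Log2 difference between Aldara and control brains (horizontal axis) of each of the 9 myelin genes, with its 95% interval from limma. Red and blue points passed the test as higher and lower, grey points did not, open symbols give the difference under 3 other scalings, and the dashed line marks the median of all probesets tested, -0.041. Mbp stays left of 0 and Cldn11, Ermn and Mag right of 0 under each of the 4 scalings drawn.

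The balance of small changes depended on how the arrays were scaled. With all arrays centred on the same median, Mobp (-0.12, adjusted p = 0.015) and Mal (-0.14, adjusted p = 0.017) also passed as lower, and the share of lower probesets went from 21.0% to 41.0% of all tested. Mal was lower as well without control replicate 3 (-0.12, adjusted p = 0.033) and Mobp without Aldara replicate 1 (-0.10, adjusted p = 0.049). Mbp was lower, and Cldn11 and Ermn were higher, under all 20 alternatives, with log2 differences of -0.26 to -0.17, of 0.24 to 0.33 and of 0.23 to 0.32. For Mbp, Mag, Cldn11 and Ermn the exact two-sided permutation test over the 252 relabelings of the arrays gave p = 0.0079, which is the lowest value possible with groups of 5. Groups of 5 that do not overlap always give this value, so it only repeats their separation. Of all probesets 10.5% were higher and 15.3% lower without overlap.

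A ratio of genes on the same array does not depend on a shift of that array. The log2 ratio of Cldn11 to Mbp averaged -1.08 in control mice and -0.58 in Aldara-treated mice, and the groups did not overlap. The ratio was 1.41-fold higher in Aldara-treated mice (log2 difference 0.50, 95% interval 0.41 to 0.59). That of Ermn to Mbp was -2.07 to -1.79 against -1.49 to -1.37, also 1.41-fold higher (0.49, 95% interval 0.38 to 0.60). That of Mag to Mbp was 1.25-fold higher (0.32, 95% interval 0.24 to 0.40), and the ratios of Cnp and Mog were 1.15-fold and 1.19-fold higher. For each of these 5 genes the adjusted p from limma was below the threshold and the groups were apart. Mbp itself was lower by a log2 difference of -0.21, and each ratio includes that fall. On their own values Cnp (-0.003) and Mog (0.04) did not pass, so their higher ratios are no separate result about these 2 genes. The ratios of Cldn11, Ermn and Mag join that fall to differences already given, and add no separate support for them. Mbp was the only member called lower, so higher ratios follow in part from its choice as the reference. In all, 7 of the 8 other members were higher relative to Mbp and 7 of 8 had groups that did not overlap. Relative to Mbp 70.6% of all probesets were higher and 49.2% had higher values without overlap, so the count of members is no result about the members alone. In the other direction 0.820% were lower relative to Mbp and 0.342% were lower without overlap, and no member was. Opalin did not pass (0.13, 95% interval -0.005 to 0.26).

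**Figure D3:**
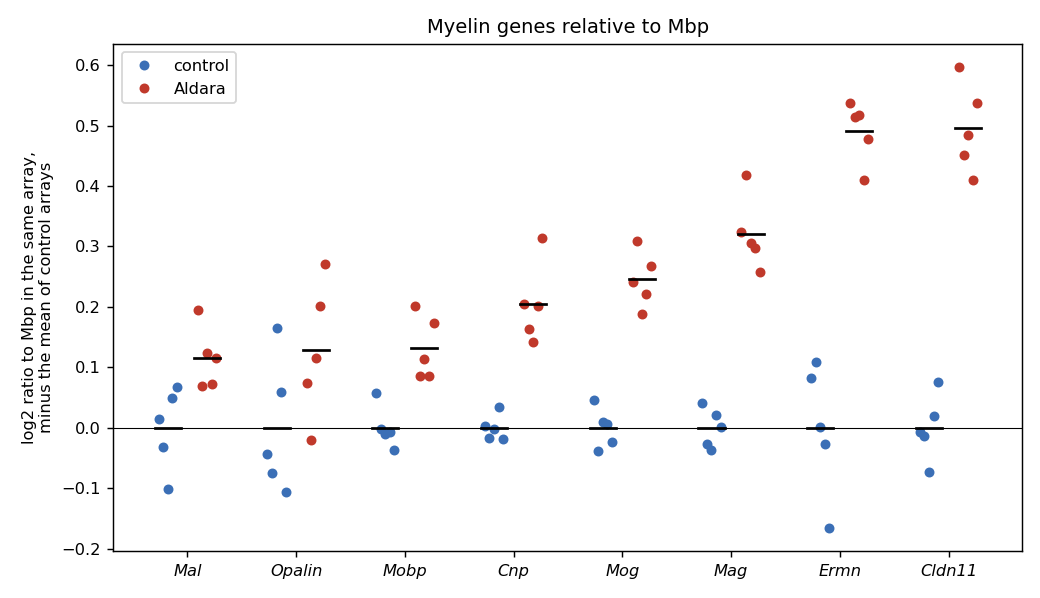
Log2 ratio of each myelin gene to Mbp on the same array, minus the mean ratio of the control arrays (vertical axis), for 5 control (blue) and 5 Aldara (red) brains. Black lines give group means. The groups are apart for 7 of 8 genes, with the widest gaps for Cldn11 and Ermn, and overlap for Opalin. Each ratio includes the fall of Mbp itself.

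The starts of the higher genes were set beside that of a gene whose level did not pass the test, because SOX10 and MYRF are the transcription factors that switch on myelin genes in oligodendrocytes. The windows run from 250 bases before to 50 bases after the start of transcription, from RefSeq on the mouse build GRCm38.p6. Considered are 8 of the 9 members, all but Mbp, so the only lower member is not among them. Both strands were searched for ACAAAG and ACAATG, cores bound by SOX factors, for CTGGCAC and CTGGTAC, forms of the MYRF motif, and for CAGCTG, an E-box, and matches stand in capitals, with none overlapping another. Shown are the 3 genes that were higher and, for comparison, Cnp, which did not pass. Of Mag, which has 3 windows, the one at the annotated 5′ end is given. The window of Ermn is chr2:58052815-58053114 on the minus strand, that of Cldn11 is chr3:31149670-31149969 on the plus strand, that of Mag is chr7:30914873-30915172 on the minus strand and that of Cnp is chr11:100574689-100574988 on the plus strand.
Ermn: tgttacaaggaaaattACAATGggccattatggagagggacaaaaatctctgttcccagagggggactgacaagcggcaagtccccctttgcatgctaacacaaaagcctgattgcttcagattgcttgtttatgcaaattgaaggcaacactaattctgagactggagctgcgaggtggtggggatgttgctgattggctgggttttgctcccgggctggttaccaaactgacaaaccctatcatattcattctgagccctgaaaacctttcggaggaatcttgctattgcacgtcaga
Cldn11: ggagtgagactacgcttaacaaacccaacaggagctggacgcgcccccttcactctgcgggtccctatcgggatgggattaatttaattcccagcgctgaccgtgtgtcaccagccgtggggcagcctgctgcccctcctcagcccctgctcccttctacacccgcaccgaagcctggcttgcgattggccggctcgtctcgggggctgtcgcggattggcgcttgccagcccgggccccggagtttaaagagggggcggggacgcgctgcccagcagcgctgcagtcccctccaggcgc
Mag: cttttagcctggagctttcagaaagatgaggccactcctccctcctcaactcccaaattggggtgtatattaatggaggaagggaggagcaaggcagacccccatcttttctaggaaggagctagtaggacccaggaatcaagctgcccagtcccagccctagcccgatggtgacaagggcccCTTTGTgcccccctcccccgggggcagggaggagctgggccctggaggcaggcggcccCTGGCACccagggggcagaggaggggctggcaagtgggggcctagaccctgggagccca
Cnp: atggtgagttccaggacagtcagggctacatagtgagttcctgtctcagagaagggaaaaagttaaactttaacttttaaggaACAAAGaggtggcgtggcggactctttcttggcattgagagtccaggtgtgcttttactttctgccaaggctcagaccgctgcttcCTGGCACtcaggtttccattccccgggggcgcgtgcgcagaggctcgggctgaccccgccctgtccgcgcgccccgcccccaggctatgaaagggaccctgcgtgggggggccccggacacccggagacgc

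Mag and Cnp each held 1 ACAAAG, on the minus strand in Mag and the plus strand in Cnp, and 1 CTGGCAC. Ermn held 1 ACAATG, and the window of Cldn11 held none of the 5 motifs. Over the members, 5 of 8 windows held a SOX core and 4 of 8 a MYRF motif, where 28.6% and 7.10% of 32851 windows of the same length did, and 1 of 8 held the E-box, where 16.3% did. Among the other members that did not pass, Mobp held 6 ACAAAG and Mog 1 CTGGTAC. Opalin held 2 ACAAAG, 1 CTGGCAC and 1 CAGCTG, and Mal held none of the motifs. A match is a description of the letters and not a site at which a factor was seen. Whether the motifs have a part in the changes was not tested.

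Other proteins of the sheath and of the oligodendrocyte surface were examined next. Of 16 genes measured on a list of such proteins, 8 were lower and 2 were higher, where 21.0% and 12.4% of all probesets were, with a median log2 difference of -0.098. The share of lower probesets was larger among brighter ones, 4111 of 11705 when tested alone. A share matched to the brightness of each list was not computed, here or for the lists below. Gpm6b, a membrane glycoprotein of neurons and oligodendrocytes, differed by -0.21 on the log2 scale (standard error 0.02, limma adjusted p = 3.7e-05), and Septin8 by -0.14 (standard error 0.03). Sirt2, a deacetylase of oligodendrocytes, with -0.15 (standard error 0.03), and Cadm4, an adhesion molecule that faces the axon, with -0.17 (standard error 0.04), were lower too. The higher ones were the tetraspanins Cd9, at 0.72 (standard error 0.06), and Cd82, at 0.27 (standard error 0.03), which leukocytes also carry. Of the 8 lower genes 5 were lower under each of 4 scalings, where 11.8% of all probesets were, and both higher ones stayed so.

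Genes of myelin lipids went both ways. Of 12 measured, 4 were higher and 3 were lower, where 12.4% and 21.0% of all probesets were. Elovl1 and Cers2, which make the very long chain fatty acids and the ceramides built from them, differed by 0.44 (standard error 0.04, limma adjusted p = 3.6e-06) and 0.26 (standard error 0.03), and Gltp, a glycolipid transfer protein, by 0.38 (standard error 0.04). Scd2, a fatty acid desaturase, was lower, at -0.16 (standard error 0.02), and so was Plaat3, a phospholipase, at -0.31 (standard error 0.05). The genes that make and sulphate galactosylceramide, the typical lipid of myelin, did not pass, with differences of -0.07 (standard error 0.06) for Ugt8a, 0.07 (standard error 0.04) for Fa2h and -0.06 (standard error 0.04) for Gal3st1. Gal3st1 was lower with the arrays centred (-0.11) and with quantile normalisation (-0.11).

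Among other genes of mature oligodendrocytes, 9 of 24 were higher and 9 were lower, where 12.4% and 21.0% of all probesets were. Under each of 4 scalings 6 were higher and 6 were lower, where 9.77% and 11.8% of all probesets were. Apod, a lipid carrier of oligodendrocytes that other cells of the brain also secrete, went from 12.46 to 12.59 in control mice to 13.46 to 13.60 in Aldara-treated mice. This was a 2.01-fold increase (log2 difference 1.01, standard error 0.04, limma adjusted p = 2.2e-09). Klk6, a secreted protease, went from 8.83 to 8.97 to a range of 9.71 to 9.90, a difference of 0.91 (standard error 0.05, limma adjusted p = 4.5e-08). Trf, transferrin, which oligodendrocytes and the choroid plexus make, was higher by 0.60 (standard error 0.03, limma adjusted p = 6.0e-08). Plekhb1 was lower, at -0.28 (standard error 0.03, adjusted p = 2.7e-05).

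Of the transcription factors of the lineage most did not pass, as was so for all probesets, of which 12.4% were higher and 21.0% lower. Of 11 measured, Myrf, the regulator of myelin genes, was higher, at 0.11 (standard error 0.03, adjusted p = 0.0086 from limma), and Sox8 was lower, at -0.18 (standard error 0.04, adjusted p = 0.0060). Myrf lost its call with the arrays centred. Sox10, which all cells of the lineage need, differed by -0.09 (standard error 0.05, adjusted p = 0.19), and Olig2 and Olig1 by 0.12 (standard error 0.05, adjusted p = 0.098) and 0.01 (standard error 0.05, adjusted p = 0.85). With the arrays centred Sox10 passed as lower (-0.14), and with the median difference set to 0 Olig2 passed as higher (0.16).

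Genes of the earlier stages of the lineage were counted in the same way. Of 15 genes measured on a list for oligodendrocyte precursors, 9 were lower (60.0%, against 21.0% of all probesets) and 1 was higher, with a median log2 difference of -0.14. This share was not particular to precursors, as 83.3% of the neuron markers and 60.0% of the astrocyte markers measured were lower too. Gpr17, a receptor of precursors that are about to differentiate, had the largest decrease, with log2 values of 8.79 to 9.07 in control mice and 8.41 to 8.73 in Aldara-treated mice. It differed by -0.33 (standard error 0.07, limma adjusted p = 0.0020). Cacng4, Tnr and Pcdh15 had log2 fold changes of -0.19 (standard error 0.03), -0.19 (standard error 0.03) and -0.18 (standard error 0.03), and Sulf2, which trims heparan sulphate, was higher, at 0.13 (standard error 0.02). Neurons express several of these genes too. The defining markers of precursors, Pdgfra and Cspg4, differed by -0.04 (standard error 0.04, adjusted p = 0.49) and 0.01 (standard error 0.04, adjusted p = 0.82). Of 10 genes of newly formed oligodendrocytes 4 were lower and 1, the calcium channel gene Itpr2, was higher, at 0.22 (standard error 0.03). Enpp6, a marker of cells that have just begun to myelinate, differed by -0.30 (standard error 0.04, limma adjusted p = 2.1e-04), and Bcas1, another such marker, by -0.26 (standard error 0.04, limma adjusted p = 1.6e-04). The other lower genes of that list were Tmem163 and Rras2, at -0.18 (standard error 0.04) and -0.12, and Rras2 lost its call with the median difference set to 0. Under each of 4 scalings 6 of the 15 precursor genes and 3 of the 10 genes of newly formed cells were lower, against 11.8% of all probesets.

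On the side of the axon, genes of the node and of the junctions beside it were examined. Of 10 measured, 9 were lower, where 21.0% of all probesets were, and 6 of them were lower under each of 4 scalings, where 11.8% were. Cntnap1, which with contactin fixes the loops of the sheath to the axon, differed by -0.26 (standard error 0.04, limma adjusted p = 1.8e-04). Cntn1, contactin itself, differed by -0.18 (standard error 0.02), and Ank3, the ankyrin that gathers sodium channels at the node, by -0.20 (standard error 0.03). General markers of neurons moved alongside, with 10 of 12 lower, a median of -0.13 and summed log2 values of 15.71 to 15.75 in control mice and 15.60 to 15.63 in Aldara-treated mice. With the median difference set to 0, 6 of the 12 were lower. Their part in the change of the nodal genes was not tested.

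**Figure D4:**
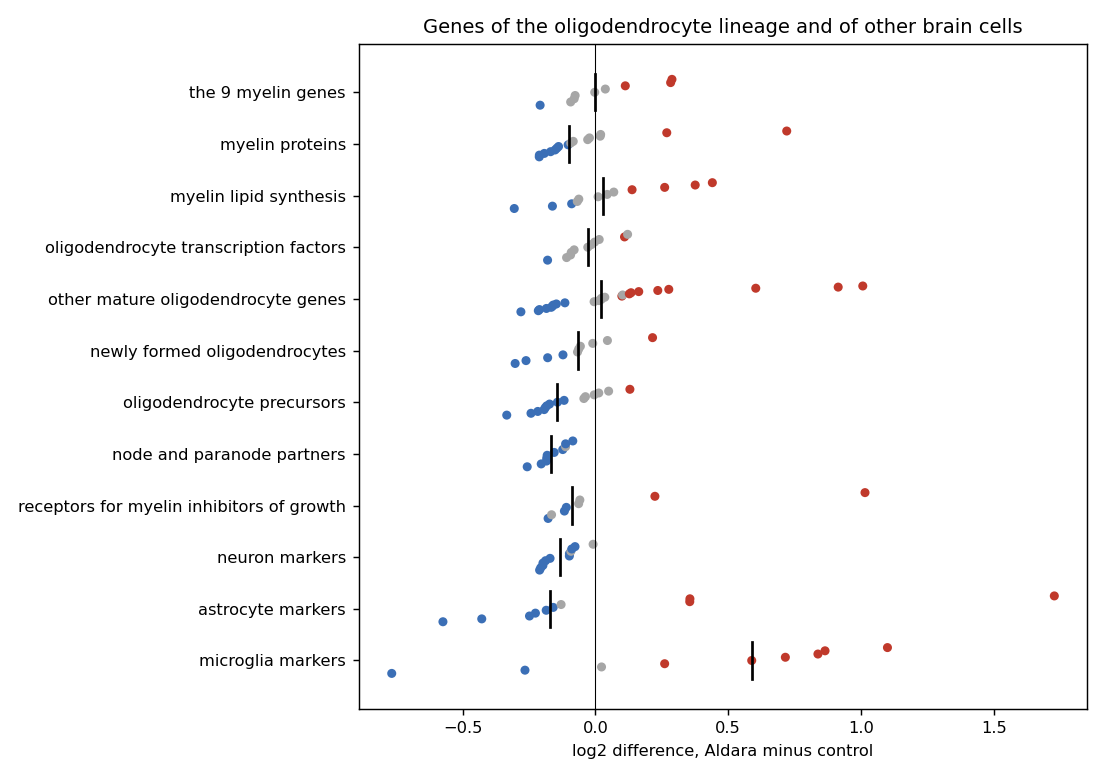
Log2 difference between Aldara and control brains (horizontal axis) of the genes on 9 lists of the oligodendrocyte lineage and its partners and on 3 lists of markers of other brain cells. Each point is 1 gene, red and blue where it passed the limma test as higher and lower and grey where it did not, and black bars give list medians. The 9 myelin genes scatter around 0. The medians of precursors, nodal genes, neuron markers and astrocyte markers lie furthest left of it, at -0.14, -0.17, -0.13 and -0.17.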

How the data were processed

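The authors scanned GeneChip Mouse Gene 1.0 ST arrays and deposited 1 log2 value per probeset and array, from RMA 16 in GeneSpring GX. RMA models and removes background, gives the probes of all arrays 1 distribution of values and then combines probes into probesets. The deposited probeset values did not share 1 distribution. Medians of the tested probesets were 8.10 to 8.14 in control mice and 8.16 to 8.19 in Aldara-treated mice. Versions of GeneSpring and of the library file are not given in the sources used here, and the values carry no detection call.

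Genes were named from the array's GEO annotation, in which 21789 of 28856 probesets had 1 symbol, 1621 several and 5446 none. Tests used limma 3.58.1 (R 4.3.3) on the 23410 probesets with a symbol, Aldara against control without covariates, and Benjamini-Hochberg adjustment over these 23410 with a threshold of 0.05. The scripts were tested on simulated data. A fold change is the difference between group means on the log2 scale. For lists, the probeset of a gene with the highest mean was taken.

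The members and lists were chosen with earlier results of these data known. Named are all members, up to 4 genes of each list with the smallest p, all genes of a list that moved where these were 5 or fewer, and the 10 genes most like the members. Cadm4, Plaat3, Gpr17, Pdgfra, Cspg4, Ugt8a, Fa2h, Gal3st1, Sox10, Olig1, Olig2 and Sirt2 were named after their values were seen.

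Alternatives were 3 other scalings, other sets of probesets, a trend with a robust prior, array weights, the methods' t-test, the replicate number as a block and leaving out each array in turn. Replicate numbers came from the labels. The sources used here name no batch. Some listed genes are not reported here.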

Additional observations from a re-analysis of the deposited data

Results flagged for a closer look

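Mag in control replicate 3, at a log2 value of 11.06, lay apart from the other control mice, the nearest of which had 11.13. It was the single outlying value in the 18 groups of 5 mice examined for the 9 myelin genes, by Dixon's ratio, and chance alone marks about 1 group in 20. Without this mouse the log2 difference of Mag was 0.10 (adjusted p = 0.048 from limma), against 0.11 with it.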

How the results depend on the processing

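The number of members that were higher was 3 as reported, 3 without any 1 array and 2 with the arrays centred, where Mag did not pass. The number of members that were lower was 1, but 3 with all arrays centred on the same median and 1 to 2 when each array was left out in turn. The median over the members lay between -0.034 and 0.021 without any 1 array. No member changed sign as a called result. The replicate number as a block left 3 members higher and 1 lower, and moved all calls from 7827 to 7122. Same-numbered samples did not deviate together in all pairs (2 of 5 pairs correlated above 0.1, -0.11 to 0.25), and 4 of 10 samples correlated best with their own number, so the numbers were not taken to pair the mice. Over all probesets the calls were 2299 higher and 9606 lower with the arrays centred (11905 in all), against 2901 and 4926, and 3833 higher and 2760 lower with the median difference set to 0. The methods' t-test with Benjamini-Hochberg adjustment gave 2750 higher and 4484 lower. Counts in the gene lists moved as well. With the arrays centred, 4 transcription factors were lower and none higher, and 6 receptors of myelin inhibitors and 2 genes of peripheral myelin were lower. With quantile normalisation, 3 transcription factors and 2 genes of peripheral myelin were lower. With the median difference set to 0, 5 myelin proteins, 6 neuron markers and 1 receptor were lower, and 2 transcription factors were higher. Among the 11705 brighter probesets only, 2 transcription factors and no microglial marker were lower, and 1 receptor and 4 leukocyte markers were higher. Dimmer genes were left out of that test, among them Siglech, Gpr34 and Pirb. The smaller counts of microglial markers, receptors and leukocyte markers therefore do not show that their changes were lost. With array weights 2 transcription factors were lower, with the methods' t-test 1 receptor was lower, and with the replicate block 2 transcription factors and 2 genes of peripheral myelin were lower. Leaving out control replicate 1, 4 or 5, or Aldara replicate 1 or 4, gave 1 lower receptor in place of 3. Signal over background could not be examined, which limits what small differences of dim probesets show.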

Other observations

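Receptors and ligands through which myelin halts the growth of axons were examined as well. Of 8 genes measured, Pirb, a receptor for these ligands that leukocytes carry, was higher, with log2 values of 6.88 to 7.32 in control mice and 7.91 to 8.18 in Aldara-treated mice and a difference of 1.01 (standard error 0.08, limma adjusted p = 1.1e-06). Tnfrsf19 was higher too, at 0.22 (standard error 0.04), while Rtn4rl2, Rtn4rl1 and Lingo1 were lower, at -0.18 (standard error 0.05), -0.12 (standard error 0.04) and -0.11 (standard error 0.04). Under each of 4 scalings both higher genes stayed so and 1 of the lower ones, Rtn4rl2, did. Of 5 genes measured for the myelin of peripheral nerves, Drp2 was lower, at -0.20 (standard error 0.03), and none was higher. Of 10 astrocyte markers, 3 were higher and 6 were lower, with Gfap at 1.73 (standard error 0.04) and Slc1a2 at -0.57 (standard error 0.04). Beside the counts of these 3 lists, 12.4% of all probesets were higher and 21.0% lower.

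In some mice most of the myelin genes lay on the same side of the mean of their group. In Aldara replicates 1 and 5, 8 of 9 members lay above the mean of the Aldara-treated mice, and in Aldara replicate 3 none did. In control replicate 2, 8 of 9 lay above the mean of control mice, and in control replicate 3 only Opalin did. With the group means subtracted, the values of 10 arrays gave Pearson coefficients above 0 for 30 of 36 pairs of members, with a median of 0.32, the highest being 0.93 for Mal and Cldn11 and the lowest -0.73 for Mag and Opalin. Members on 1 array share its RNA and its normalisation, and no test was made. The same counts were not made for other genes, so they are not shown to be particular to the myelin genes.

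The genes whose deviations within groups were most like the mean of the members, out of 19938, were Cyp2u1, with a coefficient of 0.96, Trp53rkb, Hivep1, Ube2j1, Pank3, Nckap5, Sucla2, Hspa4l, Txn1 and Sptlc1, with 0.89 to 0.93. None of the 10 was on a list of oligodendrocyte genes. Of the members, Mobp was most like the mean of the others, with 0.89, followed by Cnp with 0.78 and Mbp with 0.77, and Mag (0.01) and Opalin (-0.04) were least like it. With 10 arrays and this many genes, high coefficients are found for some genes whatever their role.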
